A study of Mus musculus with 7 samples.

Results

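The postsynaptic light response of ON bipolar cells was described from 10 genes of the mGluR6 cascade in total RNA-seq of WT and SCA7 retina. They were selected by their symbols, *Grm6*, *Trpm1*, *Nyx*, *Gpr179*, *Lrit3*, *Rgs7*, *Rgs11*, *Gnao1*, *Pcp2* and *Prkca*, among the 52550 genes of the count table. All 10 passed the filter on low counts and were tested with 20128 genes in all. The retinas came from 4 WT mice and 3 homozygous SCA7 knock-in mice (SCA7 140Q/140Q), all on the C57BL/6J strain, 12.5 weeks old and without further treatment, and each library held both retinas of a single animal. The knock-in mice carry an expanded CAG repeat in exon 1 of both *Atxn7* alleles, expressed from the physiological *Atxn7* promoter, so that bipolar cells carry the mutation as well as photoreceptors. The sex of each animal is not given in the sources used here. *Xist* had between 4 and 19 counts in each of the 7 libraries, so no library stood apart as female by it.

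ON bipolar cells, which include all rod bipolar cells, invert the light signal. In darkness, glutamate from photoreceptors activates the metabotropic receptor mGluR6, the G protein Go is turned on and the cation channel TRPM1 is held closed. In light, glutamate falls, the GTPase-accelerating complexes of RGS7 and RGS11 shut Go off and TRPM1 opens. The leucine-rich repeat proteins nyctalopin and LRIT3 and the orphan receptor GPR179 hold this complex together at the dendritic tips, and loss of GRM6, TRPM1, NYX, GPR179 or LRIT3 causes complete congenital stationary night blindness in patients.

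Total counts lay between 59902546 and 74733202 in the WT libraries and between 56497675 and 96635832 in the SCA7 libraries. Levels are CPM, the share of a library's counts after scaling by TMM factors. The edgeR quasi-likelihood test compared the genotypes, with p-values adjusted by Benjamini-Hochberg across the 20128 genes. They judge the difference between genotypes against the spread between these mice, which is estimated with help from all genes. Genes with FC (the SCA7/WT ratio) below 0.7 were called downregulated and those with FC above 1.3 upregulated, both at an adjusted p under 0.05. These are bulk retinas, in which fewer bipolar cells and less RNA per bipolar cell cannot be told apart. Summed over 10 rod markers, the level was between 69487 and 71563 CPM in WT and between 19525 and 24877 CPM in SCA7. The members were also compared without TMM factors, as shares of the library total, which raised the log2 fold changes of all genes by a median of 0.19. On that scale 978 of the 20128 genes were downregulated and 3681 upregulated. Percentages of all genes given below are those with TMM factors.

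The cascade was lower in SCA7 retina in part of its genes. *Lrit3* and *Pcp2* were downregulated, and *Grm6*, *Trpm1* and *Rgs7* were lower, with changes of -25.9%, -24.1% and -20.0%, past the test but inside the FC limit. *Nyx*, *Gpr179*, *Gnao1*, *Rgs11* and *Prkca* did not pass the test. In numbers, 2 of the 10 members were downregulated, where 7.91% of all genes tested were, and 0 were upregulated, against 7.47%. No member was higher at an unadjusted p under 0.05 either, and DESeq2 and limma-voom also gave 0 upregulated members. Without the FC limits, 5 of the 10 were lower at an adjusted p under 0.05, against 14.2% of all genes, and in the same 5 every SCA7 library was below every WT library, against 18.3% of all genes. On library totals, 3 members (*Trpm1*, *Lrit3* and *Pcp2*) were lower and 1 (*Gnao1*) was higher at that threshold. With the FC limits, 2 members were downregulated and 0 upregulated on that scale, where 978 and 3681 of the 20128 genes were. Shares of all genes without the FC limits are not given on that scale. With TMM factors, the log2 fold changes had a median of -0.25 over the cascade and of -0.02 over all genes tested.

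**Figure D1:**
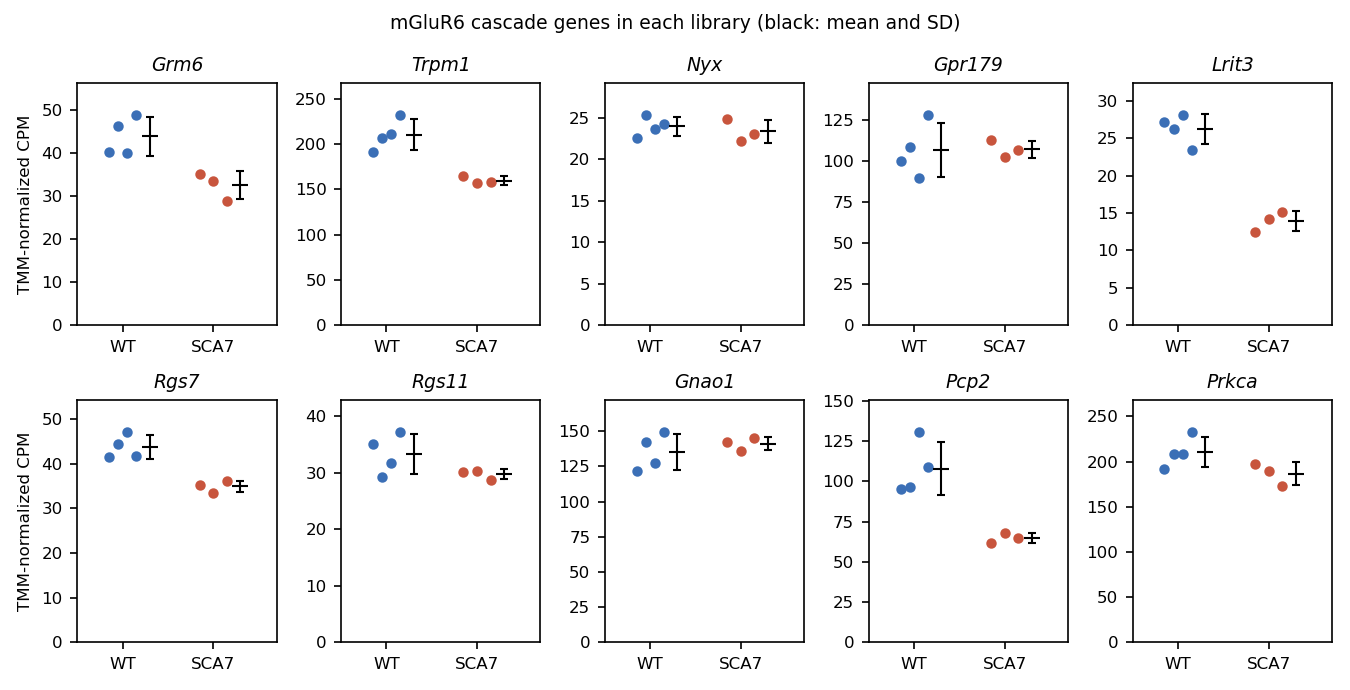
TMM-normalized CPM (vertical axes, from 0) of the 10 mGluR6 cascade genes in the 4 WT (blue) and 3 SCA7 (red) libraries, with the mean and SD in black. The groups are separate for *Grm6*, *Trpm1*, *Lrit3*, *Rgs7* and *Pcp2*, with *Lrit3* between 23.4 and 28.2 CPM in WT and between 12.5 and 15.1 CPM in SCA7, and they overlap for the other 5 genes.

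*Grm6* (ENSMUSG00000000617; chromosome 11 from 50850685 to 50866208 of mm10, plus strand) encodes mGluR6, the glutamate receptor that starts the cascade. Its level was 40.2, 46.3, 40.2 and 49.0 CPM in WT replicates 1 to 4 and 35.2, 33.6 and 29.0 CPM in SCA7 replicates 1 to 3. All 3 SCA7 libraries were below the lowest WT library. The WT mean was 44.0 ± 4.46 CPM (SD, n = 4) and the SCA7 mean 32.6 ± 3.26 CPM (SD, n = 3), a difference of -0.43 on the log2 scale (standard error, SE, 0.09, adjusted p = 0.0038, edgeR). As a share of the library total the log2 fold change was -0.24 with an adjusted p of 0.084 in the same edgeR test, so the call is lost on that scale. An antisense gene, *Gm12660*, covers 11.1% of the exonic bases of *Grm6* on the other strand and had 53 to 101 counts per library, against 2144 to 3315 for *Grm6*.

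*Trpm1* (ENSMUSG00000030523; chromosome 7 from 64153835 to 64269775, plus strand) encodes the cation channel at the end of the cascade. It had 191, 207, 211 and 232 CPM in the WT libraries and 165, 157 and 157 CPM in the SCA7 libraries. The SCA7 values lay close together and below all WT values. The log2 fold change was -0.40 ± 0.07 (SE, with adjusted p = 0.0014, edgeR), near that of the receptor gene, and -0.21 (adjusted p = 0.0497, edgeR) as a share of the library total. *Mir211*, a microRNA gene inside *Trpm1*, had 2 to 21 counts per library and did not pass the filter.

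Among the leucine-rich repeat proteins of the dendritic tips, the genes differed. *Lrit3* (ENSMUSG00000093865; chromosome 3 from 129787881 to 129804030, minus strand), which is needed for the localization of nyctalopin and TRPM1, showed the largest decrease of the 10 genes. Its level was 27.2, 26.2, 28.2 and 23.4 CPM in WT and 12.5, 14.3 and 15.1 CPM in SCA7. The highest SCA7 library was well below the lowest WT library, and the log2 fold change was -0.91 ± 0.09 (SE, with adjusted p = 1.1e-05, edgeR), a change of -46.8%. LRIT3 is reported to be made by photoreceptors as well as bipolar cells, and bulk counts do not separate these sources.

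*Nyx* (ENSMUSG00000051228; chromosome X from 13466110 to 13489313, plus strand) encodes nyctalopin, which binds TRPM1 and mGluR6. It had 22.6, 25.4, 23.7 and 24.3 CPM in WT and 24.9, 22.2 and 23.1 CPM in SCA7. The groups overlapped almost fully, and the log2 fold change was -0.04 with a 95% confidence interval from -0.18 to 0.11 (adjusted p = 0.72, edgeR). The orphan receptor gene *Gpr179* (ENSMUSG00000070337; chromosome 11 from 97332109 to 97352077, minus strand), whose product recruits RGS7 and RGS11, ranged from 89.8 to 128 CPM in WT and from 102 to 113 CPM in SCA7. The SCA7 libraries fell inside the WT range, and the log2 fold change was 0.01 with an interval from -0.22 to 0.23 (adjusted p = 0.97, edgeR). WT spread was widest for *Gpr179* and *Pcp2*, with a coefficient of variation of 15.3% each, against 4.91% for *Nyx*.

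The Go alpha subunit gene *Gnao1* (ENSMUSG00000031748; chromosome 8 from 93809966 to 93969388, plus strand), which is also expressed in amacrine and ganglion cells, had 122, 143, 127 and 149 CPM in WT and 142, 136 and 145 CPM in SCA7. All SCA7 values lay within the WT range. The log2 fold change was 0.06 with a 95% confidence interval from -0.10 to 0.23 (adjusted p = 0.58, edgeR). On the share of the library total it was 0.25 (adjusted p = 0.037, edgeR), where the median shift of all genes was 0.19.

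*Pcp2* (ENSMUSG00000004630; chromosome 8 from 3623371 to 3625545, minus strand) encodes a GoLoco protein that binds Go alpha and is a classical marker of rod bipolar cells, as it is of Purkinje cells in the cerebellum. Its level was 95.4, 96.1, 131 and 109 CPM in WT and 61.6, 67.8 and 64.6 CPM in SCA7. Every SCA7 library was below every WT library although WT replicate 3 stood above the other WT libraries. The log2 fold change was -0.74 ± 0.10 (SE, with adjusted p = 2.8e-04, edgeR), a change of -40.0%. The gene *Pet100* on the opposite strand covers 51.5% of the exonic bases of *Pcp2*. The level of *Pet100* was 18.7 ± 3.18 CPM in the 4 WT and 18.7 ± 0.419 CPM in the 3 SCA7 libraries (log2 fold change 0.00475, adjusted p = 0.98, edgeR), and whether reads were counted by strand is not given in the sources used here.

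*Rgs7* (ENSMUSG00000026527; chromosome 1 from 175059087 to 175492500, minus strand) and *Rgs11* (ENSMUSG00000024186; chromosome 17 from 26202951 to 26211324, plus strand) encode the regulators that switch Go off and can replace each other in part. *Rgs7* had 41.4, 44.4, 47.1 and 41.7 CPM in WT and 35.2, 33.5 and 36.1 CPM in SCA7. Its groups did not overlap, and the log2 fold change was -0.32 ± 0.06 (SE, with adjusted p = 0.0029, edgeR), which became -0.13 (adjusted p = 0.087, edgeR) as a share of the library total. *Rgs11* had 35.2, 29.3, 31.8 and 37.3 CPM in WT and 30.2, 30.3 and 28.8 CPM in SCA7. These groups overlapped, and the log2 fold change was -0.17 with an interval from -0.34 to 0.01 (adjusted p = 0.15, edgeR). The change in the ratio of *Rgs11* to *Rgs7* within a library, 0.16 on the log2 scale, was not larger than the spread between libraries (exact two-sided permutation test over 35 splits, p = 0.31, adjusted p = 0.39), and was 0.092 without WT replicate 2.

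*Prkca* (ENSMUSG00000050965; chromosome 11 from 107933387 to 108343928, minus strand) encodes protein kinase C alpha, the standard marker of rod bipolar cells. It had 192, 209, 209 and 233 CPM in WT and 197, 190 and 173 CPM in SCA7. A single SCA7 library exceeded the lowest WT library, and the log2 fold change was -0.17 with an interval from -0.34 to -0.01 (unadjusted p = 0.041, adjusted p = 0.11, edgeR). As log2 fold changes, the rod bipolar markers *Pcp2* and *Prkca* thus stood at -0.74 and -0.17, a difference that was not tested.

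To compare the members without library scaling, the count of each gene was divided by that of *Grm6* in the same library. The log2 ratio of *Trpm1* to *Grm6* was 2.26 ± 0.0979 (SD, n = 4) in WT and 2.29 ± 0.127 (SD, n = 3) in SCA7. The difference of 0.03 was within the spread between libraries (exact two-sided permutation test, p = 0.66). *Nyx*, *Gpr179* and *Gnao1* were higher relative to *Grm6* in all 3 SCA7 libraries than in any WT library, by 0.39, 0.45 and 0.50 on the log2 scale. Each had p = 0.0286 in the exact permutation test, the smallest that 35 splits allow, and adjusted p = 0.095 over the 10 ratios tested, so none passed the correction. *Prkca* was higher relative to *Grm6* by 0.26 (exact permutation p = 0.057, adjusted p = 0.14). *Lrit3* and *Pcp2* were lower relative to *Grm6* by 0.48 and 0.30, with overlapping groups (exact permutation p = 0.086 and 0.20, adjusted p = 0.14 and 0.29). For *Pcp2* the difference was -0.16 without WT replicate 3.

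**Figure D2:**
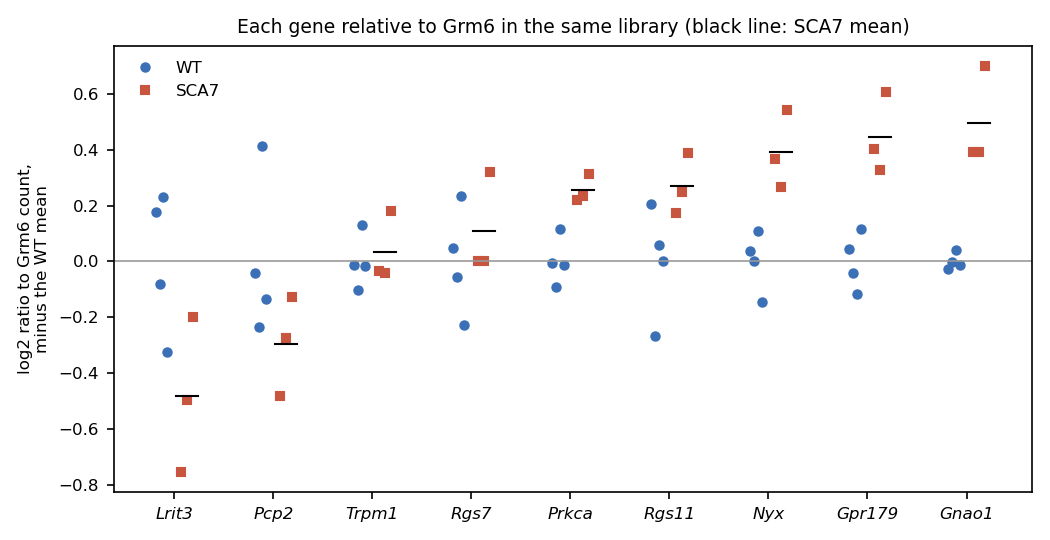
Log2 ratio of the count of each other cascade gene to the *Grm6* count of the same library, minus the WT mean (vertical axis), for 4 WT (blue circles) and 3 SCA7 (red squares) libraries, with the SCA7 mean as a black line. *Nyx*, *Gpr179*, *Gnao1* and *Prkca* sit above all WT libraries, and *Trpm1* lies at the WT level with a difference of 0.03.

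Levels of different genes were compared per length, in RPK, the count after division by DESeq2 size factors and by kb of length. With the median transcript length, the WT order ran from *Pcp2* at 14195 ± 2139 RPK (SD, n = 4) over *Gnao1* (11297 ± 1102), *Prkca* (9883 ± 793) and *Trpm1* (7289 ± 589) to a lower group of *Rgs11* (1732 ± 181), *Rgs7* (1707 ± 104), *Gpr179* (1412 ± 218), *Lrit3* (1076 ± 83.3), *Grm6* (799 ± 82.4) and *Nyx* (320 ± 16.5). The WT ranges of *Gnao1* and *Prkca*, of *Rgs11* and *Rgs7* and of *Rgs7* and *Gpr179* overlapped. Several of these genes have many short annotated transcripts, 23 for *Trpm1* and 12 for *Gnao1*, and the order depends on the length. With the union of exons, *Pcp2* was still highest at 4069 RPK and *Nyx* lowest at 320 RPK, *Prkca* was next to the top at 1617 RPK, and the others lay between 501 and 985 RPK with overlapping ranges for all neighbours in the order from *Trpm1* to *Rgs7*. In SCA7, *Pcp2* was at 8597 ± 378 RPK (SD, n = 3) with the median transcript length, below *Gnao1* at 11895 ± 458 RPK and overlapping *Prkca* at 8835 ± 577 RPK. With the union of exons *Pcp2* was highest in SCA7 too, at 2464 ± 109 RPK against 1446 ± 94.5 RPK for *Prkca* and 889 ± 34.2 RPK for *Gnao1*.

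**Figure D3:**
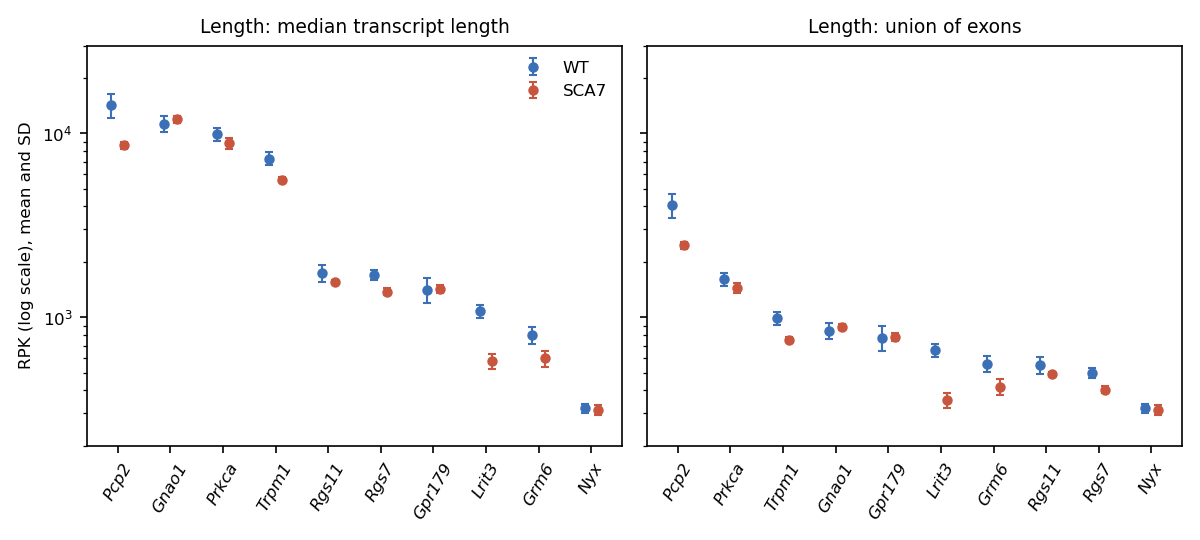
Levels of the 10 cascade genes per kb of length (RPK, log axis) in WT (blue, n = 4) and SCA7 (red, n = 3), mean and SD, with the median transcript length on the left and the union of exons on the right. *Pcp2* is highest and *Nyx* lowest in WT with both lengths, while *Gnao1* and *Trpm1* move towards the other genes with the union of exons.

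The other subunits of the signalling complex did not move alike. Of 6 partner genes, *Gnb3*, *Gng13*, *Gnb5*, *Rgs9bp*, *Rgs7bp* and *Gpr158*, 2 were downregulated and 1 was upregulated, where 7.91% and 7.47% of all genes were, with a median log2 fold change of -0.26 (-0.07 as a share of the library total, where 1 was downregulated and 1 upregulated). *Gnb3*, the beta subunit paired with Go alpha in ON bipolar cells and with transducin in cones, rose from 265 ± 13.5 CPM in the 4 WT libraries to 553 ± 30.3 CPM in the 3 SCA7 libraries, or by 1.06 on the log2 scale (adjusted p = 5.5e-07, edgeR). *Gng13*, the gamma subunit of the same trimer, fell from 90.1 ± 15.1 CPM to 61.2 ± 3.58 CPM, with a log2 value of -0.56 (adjusted p = 0.0032, edgeR). In whole retina, *Gnao1* thus stayed within its WT range while *Gnb3* was higher and *Gng13* lower, and the cells behind each value were not resolved.

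*Gnb5*, the obligate beta subunit of RGS proteins of this class in bipolar cells and photoreceptors, was lower (log2 fold change -0.51, adjusted p = 3.2e-04, edgeR), just inside the FC limit. *Rgs9bp*, which encodes the membrane anchor R9AP of rods, cones and ON bipolar cells, fell by 0.90 on the log2 scale (adjusted p = 4.5e-04, edgeR). *Rgs7bp*, another RGS7 anchor, had a log2 fold change of -0.01 (adjusted p = 0.94), and *Gpr158*, the closest relative of *Gpr179*, of 0.16 (adjusted p = 0.10, edgeR). *Gnb5* and *Rgs9bp* are shared with photoreceptors, whose markers fell in the same libraries, and the part of that fall in their values was not tested.

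On the photoreceptor side of the synapse, 9 genes were examined. The voltage-gated calcium channel gene *Cacna1f* was downregulated (log2 fold change -0.62, adjusted p = 7.4e-04, edgeR), and its partner subunit *Cacnb2* was lower (-0.37, adjusted p = 0.0014). *Dag1*, which encodes dystroglycan, was upregulated (0.42, adjusted p = 0.0015), and *Lrit2*, a relative of *Lrit3*, was lower (-0.26, adjusted p = 0.011). *Elfn1*, the adhesion protein that binds mGluR6 across the cleft from rods, had 38.7 ± 4.92 CPM in WT and 35.3 ± 1.32 CPM in SCA7 (log2 fold change -0.14, adjusted p = 0.29, edgeR). *Elfn2*, *Lrit1*, *Cacna2d4* and *Egflam*, which encodes pikachurin, did not pass the test and had log2 fold changes between -0.09 and 0.13. In all, 3 of the 9 were lower and 1 was higher past the test, against 14.2% of all genes each way, with a median of -0.09. As a share of the library total 1 was lower, 3 were higher and 0 were downregulated, so the call of *Cacna1f* is lost, and the median was 0.10. Without WT replicate 3, 5 were lower and 0 were upregulated, which ends that call for *Dag1*, and without SCA7 replicate 1, 2 were lower.

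Among 22 relatives of the members in their gene families, 20 were tested, 4 passed the test as lower and 3 as higher, against 14.2% each of all genes, and the median log2 fold change was 0.07. As a share of the library total 2 were lower and 12 higher, with 0 downregulated and 5 upregulated. On that scale 978 of the 20128 genes tested were downregulated and 3681 upregulated. Without SCA7 replicate 2 or 3 the lower genes numbered 2, and without SCA7 replicate 1 the higher genes numbered 1. *Grm4* was downregulated (log2 fold change -0.60, adjusted p = 5.9e-04), a call lost on the share of the library total, and *Grm8* was lower (-0.46, adjusted p = 7.1e-05, edgeR), while *Grm2*, *Grm3*, *Grm5* and *Grm7* did not pass the test. *Gnaz* and *Trpm7* were also lower, by -0.22 and -0.18 (adjusted p = 0.013 and 0.030). The inhibitory alpha subunit genes *Gnai2* and *Gnai3* were higher by 0.24 and 0.28 (adjusted p = 0.018 and 0.0041), and *Trpm2* by 0.34 (adjusted p = 0.010, edgeR). *Rgs6* and *Rgs9*, the other members of the R7 family, had values of 0.08 and -0.16 (adjusted p = 0.31 and 0.23), and *Prkcb* of 0.03 (adjusted p = 0.77). Per kb of the union of exons, *Grm6* at 560 RPK was above *Grm8* (322 RPK), *Grm7* (308 RPK) and *Grm5* (308 RPK) in WT, but with the median transcript length *Grm5* (1151 RPK) and *Grm8* (1127 RPK) were above it.

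Other markers of rod bipolar cells were lower as well. All 9 genes of the list had a negative log2 fold change with a median of -0.48, 8 passed the test and 4 were downregulated, where 14.2% and 7.91% of all genes were. As a share of the library total 8 also passed, 2 were downregulated and the median was -0.29. The homeobox gene *Sebox* fell from 66.7 ± 15.1 CPM to 29.0 ± 3.95 CPM (log2 fold change -1.20, adjusted p = 0.0019, edgeR). The protein kinase C substrate gene *Tpbg* (-0.64) and the calcium sensor gene *Cabp5* (-0.60) were downregulated, and *Vstm2b* (-0.48), the GABA receptor subunit genes *Gabrr1* (-0.46) and *Gabrr2* (-0.42) and *Car8* (-0.45) were lower inside the FC limit. *Bhlhe23* did not pass (-0.21, adjusted p = 0.076).

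Of 4 genes expressed across bipolar types, 1 was lower and 1 higher past the test, against 14.2% of all genes each way, and 2 were higher without WT replicate 4 and with the replicate block. On library totals 0 were lower, 3 were higher and 1 of these was upregulated, so the call of *Isl1* is lost, as it is without any of the 3 SCA7 libraries. *Lhx4* had a log2 fold change of 0.06 (adjusted p = 0.58, edgeR), *Isl1* was lower by -0.20 (adjusted p = 0.025) and *Otx2*, which photoreceptors share, was higher by 0.27 (adjusted p = 0.0059). Of 7 cone bipolar genes 4 were lower, where 14.2% of all genes were, and 1, *Neto1* (-0.67, adjusted p = 0.0038), was downregulated, with *Vsx1* at -0.50 (adjusted p = 1.4e-04), *Fezf2* at -0.36 (adjusted p = 0.026) and *Grik1*, the kainate receptor gene of OFF bipolar cells, at -0.19 (adjusted p = 0.048, edgeR). *Scgn*, *Tacr3* and *Lhx3* had 0.05, -0.12 and -0.19 (adjusted p = 0.63, 0.41 and 0.12). The median of this list was -0.19. As a share of the library total 2 were lower, 1 was higher and 0 were downregulated, so the call of *Neto1* is lost, and the median was 0.0018. Leaving out WT replicate 2, WT replicate 4 or any SCA7 library left 2 lower. Markers of other cells were read in the same libraries. All 10 rod and all 9 cone genes were downregulated (medians -1.20 and -1.82), against 7.91% of all genes. All 9 microglial genes were upregulated (median 1.06), against 7.47%. As a share of the library total, 9 rod and 9 cone genes were downregulated and 9 microglial genes upregulated. Lower past the test were 4 of 9 amacrine, 1 of 4 horizontal and 1 of 8 ganglion cell genes, against 14.2% of all genes (medians -0.25, -0.08 and -0.11). On library totals these counts were 1, 1 and 0, with 1, 1 and 0 higher. The amacrine count became 6 without WT replicate 1 or 3 and 2 without SCA7 replicate 1 or 2. The ganglion cell count was 2 without WT replicate 1, 3 without WT replicate 3 and 0 without SCA7 replicate 1 or 2. Of 7 Müller glia genes 1 was lower and 2 were higher, against 14.2% of all genes each way, with a median of -0.04 (0 and 3 as a share of the library total). The higher count was 1 without WT replicate 1, SCA7 replicate 1 or SCA7 replicate 3 and 3 without WT replicate 3, and the lower count was 0 without SCA7 replicate 2 or 3. Their part in the values of the cascade was not tested.

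**Figure D4:**
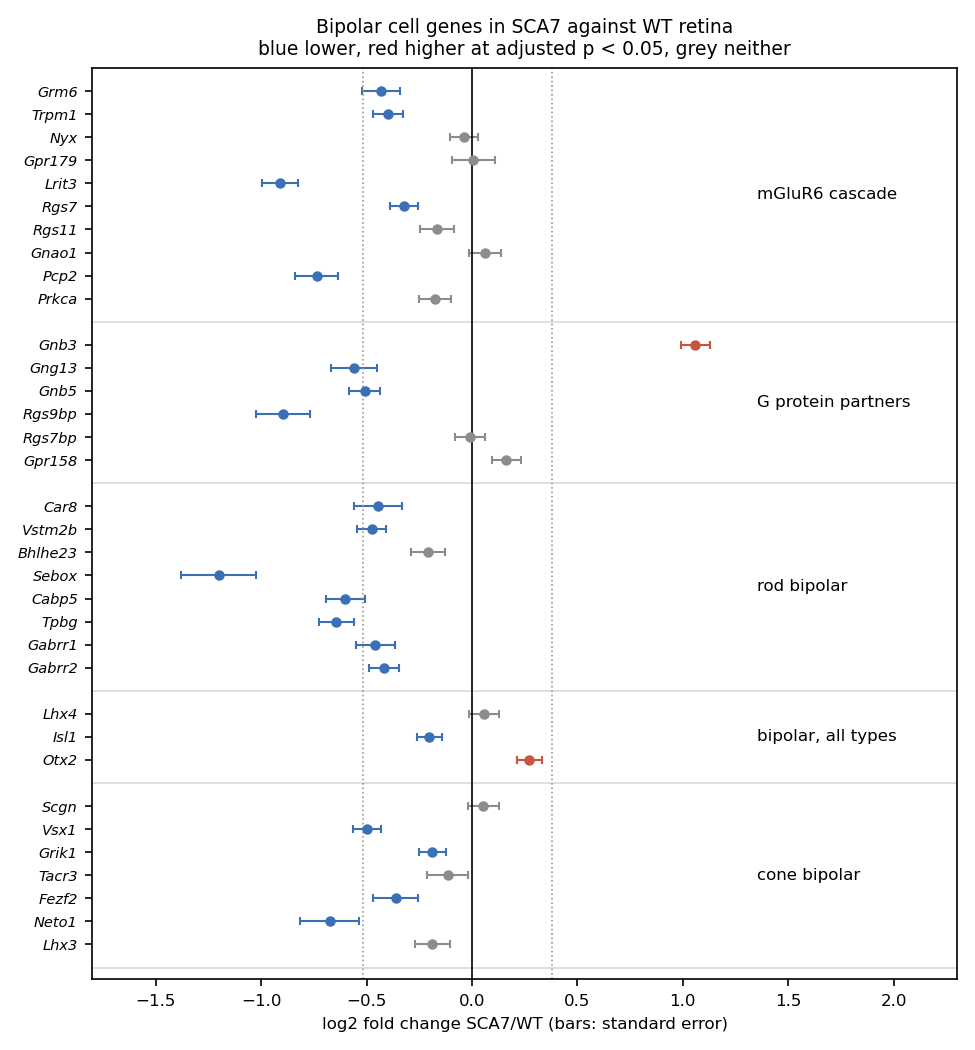
Log2 fold change SCA7/WT (horizontal axis) with its standard error for the cascade genes, their G protein partners and named bipolar cell markers, from the edgeR test over 4 WT and 3 SCA7 libraries. Blue is lower and red higher at an adjusted p under 0.05, grey is neither, and dotted lines are FC of 0.7 and 1.3. All rod bipolar markers shown lie to the left of 0, with *Sebox* at -1.20, and *Gnb3* stands alone at 1.06. The group labelled as all types holds the further bipolar cell genes *Lhx4*, *Isl1* and *Otx2*.

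The starts of these genes were read from RefSeq windows of GRCm38.p6, 250 bases before to 50 bases after each annotated start, which were at hand for 9 of the 10 members in 13 windows. Shown are windows of 4 of the 5 genes that were lower past the test, *Lrit3* and *Pcp2* with the largest decreases of the 10 and *Grm6* and *Trpm1* as receptor and channel. Capitals mark TAATCC in either strand (GGATTA on the other), the core site of CRX and OTX2, and TAATTA, a palindromic core of many homeodomain factors. The windows are chr3:129804087-129804386 (minus strand) for *Lrit3*, chr8:3625498-3625797 (minus strand, the most upstream of 4) for *Pcp2*, chr11:50850435-50850734 (plus strand) for *Grm6* and chr7:64153585-64153884 (plus strand, the upstream of 2) for *Trpm1*.
Lrit3: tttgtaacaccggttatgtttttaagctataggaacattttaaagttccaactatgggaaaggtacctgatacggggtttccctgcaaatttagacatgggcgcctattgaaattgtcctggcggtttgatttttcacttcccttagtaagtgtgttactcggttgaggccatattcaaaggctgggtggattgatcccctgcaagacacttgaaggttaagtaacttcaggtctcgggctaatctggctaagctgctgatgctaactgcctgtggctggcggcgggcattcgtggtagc
Pcp2: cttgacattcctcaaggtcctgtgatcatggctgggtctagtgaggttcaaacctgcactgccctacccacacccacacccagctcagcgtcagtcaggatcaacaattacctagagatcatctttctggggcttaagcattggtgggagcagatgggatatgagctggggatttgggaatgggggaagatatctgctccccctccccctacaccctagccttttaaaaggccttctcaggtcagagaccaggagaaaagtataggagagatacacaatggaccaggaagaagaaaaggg
Grm6: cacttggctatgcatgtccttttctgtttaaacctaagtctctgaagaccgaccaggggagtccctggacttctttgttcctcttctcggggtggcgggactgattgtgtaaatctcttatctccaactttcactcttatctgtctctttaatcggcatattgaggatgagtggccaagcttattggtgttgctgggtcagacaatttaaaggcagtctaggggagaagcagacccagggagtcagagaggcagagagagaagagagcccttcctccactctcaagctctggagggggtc
Trpm1: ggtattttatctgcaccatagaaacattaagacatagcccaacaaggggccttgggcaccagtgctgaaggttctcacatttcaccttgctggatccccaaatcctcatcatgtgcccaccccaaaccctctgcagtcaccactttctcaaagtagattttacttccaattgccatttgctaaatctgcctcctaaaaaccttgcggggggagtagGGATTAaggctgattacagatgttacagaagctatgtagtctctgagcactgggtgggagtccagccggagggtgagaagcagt
TAATCC was present in 1 of the 13 windows, that of *Trpm1*, where it begins at position -34 from the start on the other strand, and in 7.06% of all 32851 windows. TAATTA was present in 1 window, the third of *Pcp2*, and in 5.29% of all windows. The members thus held these letters in about as few windows as other genes did. Their base composition fell into separate ranges, with G and C making up 73.3% of the window of *Rgs7*, 76.3% of that of *Gnao1* and 75.3% of that of *Prkca* and between 46.0% and 57.7% in the windows of the other 6 genes. Of the 3 GC-rich genes *Rgs7* was lower, and of the other 6 *Lrit3*, *Pcp2*, *Grm6* and *Trpm1* were lower while *Nyx* and *Gpr179* were not.

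The genes whose levels followed *Grm6* most closely over the 7 libraries were named from 13265 other protein-coding genes with at least 1 CPM, by Pearson's r of log2 CPM and as a description, since the genotype difference enters r. They were *Zbtb5* (0.99), *Nt5dc2* (0.98), *Prom1* (0.97), *Zfp879* (0.97) and *Zmat1* (0.96), of which *Nt5dc2* and *Prom1* were lower in SCA7 by -0.41 and -0.26 (adjusted p = 0.0096 and 0.015, edgeR). Among the members, *Trpm1* was closest at 0.92, place 60 of these genes, followed by *Prkca* at 0.91 (place 100), and *Gnao1* was last at 0.02.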

How the data were processed

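Total RNA-seq libraries from retinas of 4 WT and 3 SCA7 mice were analysed. The authors depleted ribosomal RNA, prepared stranded libraries, mapped single reads to mm10 with Tophat 2.0.14 and bowtie2 2.1.0, counted them per gene with HTSeq 0.6.1 and deposited raw counts. The HTSeq mode and strand option are not given in the sources used here. Positions and lengths came from GENCODE M21, on the same assembly, which named 52403 of 52550 genes. Genes passing filterByExpr were fitted in edgeR 4.0.16 (R 4.3.3) with TMM factors and a robust quasi-likelihood test, without covariates. The standard error is that of the log2 fold change. Ratios used counts plus 0.5. Alternatives used DESeq2 1.42.0 and limma 3.58.1. The steps were tested on simulated counts. The members and all gene lists were chosen with earlier results of these data known. Named are all members, every called gene of the partner, family and bipolar lists and up to 3 of their other genes with the highest WT level, further genes of these lists after their values were seen, and the 5 genes most like *Grm6*. Some genes of these lists are counted but not reported here by name. Counting error is part of the SD over mice.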

Additional observations from a re-analysis of the deposited data

How the results depend on the processing

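Across 17 alternatives (DESeq2 size factors, TMM without the 500 genes with the most counts and the photoreceptor markers, DESeq2, limma-voom, 2 other filters, the replicate block, *Xist*, an adjusted p under 0.01, thinned counts and each library left out), *Lrit3* and *Pcp2* were downregulated in 17 of 17, and the log2 fold changes of *Grm6*, *Trpm1* and *Rgs7* had an adjusted p under 0.05 in 17 of 17. Of 170 values, 165 kept direction and side of the threshold. With a library left out, *Gpr179* ranged from -0.069 to 0.11, *Nyx* from -0.081 to 0.00035 and the ratio of *Trpm1* to *Grm6* from -0.039 to 0.078 on the log2 scale, so these signs are not determined. *Prkca* passed only with *Xist* as a covariate (adjusted p = 0.0497, edgeR). *Xist* had 4 to 19 counts per library, so that covariate does not separate sexes. Library totals without TMM factors, tried after seeing the data, left 3 members lower and 1 (*Gnao1*) higher past the test, moved *Nyx* to 0.15, *Rgs11* to 0.023 and *Prkca* to 0.016, and gave 978 downregulated and 3681 upregulated genes in all, against 1592 and 1504. Whether replicate numbers pair the samples is not settled. Deviations of same-numbered libraries correlated at 0.01, 0.20 and 0.08, and 1 of 3 SCA7 libraries was closest to its own number. Deviations from the means of so few libraries cannot exclude a pairing. WT replicate 4 shares its number with no SCA7 library, and *Grm6* was at -0.376 both with the block and without that library. With the replicate block, 2 members were downregulated and 5 lower, and the counts over all genes were 1706 and 1629. Genes lower past the test over the 17 alternatives numbered 7 to 9 for rod bipolar, 2 to 4 for cone bipolar, 0 to 1 for all bipolar types, 2 to 6 for amacrine, 0 to 3 for ganglion cell, 2 to 5 for family and 2 to 5 for photoreceptor partner lists, and family genes that were higher numbered 1 to 4. RPK levels other than that of *Nyx* moved with the length used.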
